A study of Mus musculus with 14 samples.

Results

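The Krüppel-like factors described here were 10 of the 35275 genes in a read-count table of mouse carotid arteries, each found by an exact match of its symbol. They were Klf2, Klf3, Klf4, Klf5, Klf6, Klf7, Klf10, Klf11, Klf13 and Klf15, a part of the Klf family. They were chosen with earlier results of these data known, and 7 further Klf genes in the table are described under other observations. All 10 passed the filter on low counts in every comparison. Klf2 (ENSMUSG00000055148) spans 72319033 to 72321656 on the + strand of chromosome 8 and Klf4 (ENSMUSG00000003032) spans 55527143 to 55532466 on the − strand of chromosome 4, in GRCm38 coordinates. The others lie on chromosome 5 (Klf3), 14 (Klf5), 13 (Klf6), 1 (Klf7), 15 (Klf10), 12 (Klf11), 7 (Klf13) and 6 (Klf15).

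Krüppel-like factors are transcription factors that bind GC-rich and CACCC-type DNA through zinc fingers at the C terminus, a feature they share with the Sp factors. In endothelium, laminar shear stress raises Klf2 and Klf4 through the kinases MEK5 and ERK5 and the MEF2 factors, and both proteins then promote an anti-thrombotic, anti-inflammatory state. In smooth muscle, KLF4 represses contractile genes and KLF5 promotes growth, while KLF10 and KLF11 are early targets of TGF-beta and Klf15 responds to glucocorticoids and to the circadian clock.

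RNA was measured in 14 libraries from C57BL/6 mice 10 weeks old, to ask what loss of Poldip2 does in the endothelium and in the smooth muscle layer of the carotid artery. Its product binds DNA polymerase delta and also NADPH oxidase 4, an enzyme that makes reactive oxygen species. The endothelial fraction, flushed out of the vessel lumen with Qiazol, comprised 4 libraries from mice with Poldip2 deleted in endothelial cells (Poldip2-EC-/-) and 4 from Poldip2-floxed littermate controls. The left-over fraction, the media and adventitia that stayed behind, comprised 4 libraries labelled Poldip2-SMC-/-, a smooth muscle deletion, and 2 labelled Poldip2-floxed. The Cre line behind either deletion, the time of deletion and the number of animals per library are not stated in the labels. Nothing states that the numbered repeats are separate animals, so p-values measure the spread between these libraries.

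The left-over labels are in doubt. Poldip2 was 21.5 to 36.5 CPM (counts scaled to a common library total, TMM-scaled over all 14 libraries) in the endothelial knockouts and 43.7 to 59.8 CPM in the endothelial controls. In the left-over fraction it was 51.8 to 70.8 CPM in the 4 libraries labelled knockout and 23.5 and 27.4 CPM in the 2 labelled control, the opposite of the labels. The authors' deposited table names as smooth muscle control a group whose mean FPKM equals that over the 4 libraries labelled knockout, in 100% of 14805 genes at or above 1 FPKM. Of the description numbers, 3 occur both on an endothelial control and on a left-over library labelled knockout. Each left-over group is therefore called by its label, and every direction between them would turn round were the labels exchanged.

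Library depth was 15019891 to 23287155 counts, and no pair of the 14 libraries looked like the same library deposited again. The summed level of 10 endothelial markers was 17786 to 19215 CPM in the endothelial knockouts and 17042 to 20076 CPM in the endothelial controls. It was 287 to 897 CPM in the left-over libraries labelled knockout and 795 to 1215 CPM in those labelled control. The 10 smooth muscle markers summed to 475 to 773, 375 to 517, 8260.2 to 10592 and 9142 to 9829 CPM in the same order of groups, and the 10 fibroblast markers to 1929 to 4511, 2496 to 4143, 20964 to 25272 and 22845 to 28512 CPM. No marker of these 3 lists was at 0 throughout a group, so each fraction held some marker RNA of the other's cells.

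The promoters below are shown for Klf2, as the most abundant member, and for the 4 with the lowest log2 fold changes in endothelial knockouts. None of these 4 was called there. They are RefSeq sequences of GRCm38.p6, the 250 bases before the annotated start, read 5′ to 3′ on the strand of the gene. Capitals mark the MEF2 consensus in Klf2 and the E-box CACGTG, the core letters that clock factors and other basic helix-loop-helix factors can bind, in the others. They lie at chr8:72318812-72319061 (+ strand) for Klf2, chr4:55532476-55532725 (− strand) for Klf4 and chr13:5861239-5861488 (+ strand) for Klf6. Those of Klf11 and Klf15 lie at chr12:24651121-24651370 and chr6:90462326-90462575, both on the + strand.
Klf2: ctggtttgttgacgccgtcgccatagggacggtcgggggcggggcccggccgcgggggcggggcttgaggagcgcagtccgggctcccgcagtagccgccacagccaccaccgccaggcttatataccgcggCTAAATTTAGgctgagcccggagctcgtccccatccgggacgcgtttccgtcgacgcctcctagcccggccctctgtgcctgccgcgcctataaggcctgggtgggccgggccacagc
Klf4: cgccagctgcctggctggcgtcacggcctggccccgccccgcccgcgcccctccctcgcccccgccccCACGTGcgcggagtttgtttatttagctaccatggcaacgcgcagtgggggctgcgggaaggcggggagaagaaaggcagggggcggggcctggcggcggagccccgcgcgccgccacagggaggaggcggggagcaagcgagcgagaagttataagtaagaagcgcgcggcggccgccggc
Klf6: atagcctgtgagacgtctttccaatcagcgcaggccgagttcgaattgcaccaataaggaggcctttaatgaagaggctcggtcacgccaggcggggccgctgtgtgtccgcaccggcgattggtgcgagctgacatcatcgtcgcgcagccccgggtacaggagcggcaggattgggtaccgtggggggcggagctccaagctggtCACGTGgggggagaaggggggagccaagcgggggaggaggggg
Klf11: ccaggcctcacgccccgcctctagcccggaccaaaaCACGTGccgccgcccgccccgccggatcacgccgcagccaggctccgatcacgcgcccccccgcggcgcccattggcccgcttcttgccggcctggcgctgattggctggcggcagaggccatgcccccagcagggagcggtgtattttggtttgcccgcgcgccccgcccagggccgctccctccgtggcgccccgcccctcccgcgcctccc
Klf15: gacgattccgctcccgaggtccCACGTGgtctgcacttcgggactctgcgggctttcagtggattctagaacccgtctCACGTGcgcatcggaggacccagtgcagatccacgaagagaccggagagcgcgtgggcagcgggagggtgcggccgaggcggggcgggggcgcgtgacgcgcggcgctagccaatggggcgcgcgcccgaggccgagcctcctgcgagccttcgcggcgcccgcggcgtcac

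Promoter windows were found for 8 of the 10 members; Klf5 and Klf10 had none in the table used. The E-box, its own reverse complement, occurred in 4 of these 8 windows, against 6.02% of 32851 windows of the same length over all genes. It began 182 bases before the start in Klf4, 43 in Klf6 and 214 in Klf11, and in Klf15 it occurred at 172 and at 228 bases. The MEF2 consensus occurred in Klf2 only among the 8, 118 bases before the start, and in 0.508% of all windows. The GC box GGGCGG, searched on both strands like every motif here, was in 8 of 8 windows, against 32.7% of all. The CACCC box CCACCC was in 4 of 8 against 28.1%, and the CCAAT letters were in 4 of 8 against 33.8%. The CRE core TGACGT was in 1 of 8 (Klf13) against 6.47%, the TATA letters TATAAA in 0 of 8 against 12.4%, and the CArG box, the serum response factor motif, in 0 of 8 against 1.47%. None of the 6 capital matches overlapped another motif searched. The GC content of the 8 windows was 59.2 to 78.4%, above the median of 52.4% of all windows. The shares over all windows were not matched for GC content. These matches describe the letters and do not show binding.

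Per gene length, Klf2 had the highest group mean in every group. In deposited FPKM (counts scaled to gene length and to the library total), Klf2 averaged 485 ± 115 in endothelial knockouts and 471 ± 94.99 in endothelial controls (SD, n = 4 each). It averaged 81.3 ± 27.4 in left-over libraries labelled knockout (SD, n = 4) and 65.9 ± 44.97 in those labelled control (SD, n = 2). The 10 members summed to 874 to 1053 FPKM in endothelial knockouts, 775 to 1234 in endothelial controls, 271 to 358 in left-over libraries labelled knockout and 227 to 321 in those labelled control. Klf2 alone made up 47.0 to 62.3%, 45.7 to 47.9%, 21.1 to 33.6% and 15.03 to 30.5% of that sum in the same order. Single left-over libraries departed from this: in labelled control 1 Klf2, at 34.1 FPKM, was below Klf10 at 51.2 and Klf3 at 44.5, and in labelled knockout 2 it had 57.0 FPKM against 60.4 for Klf15.

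**Figure D1:**
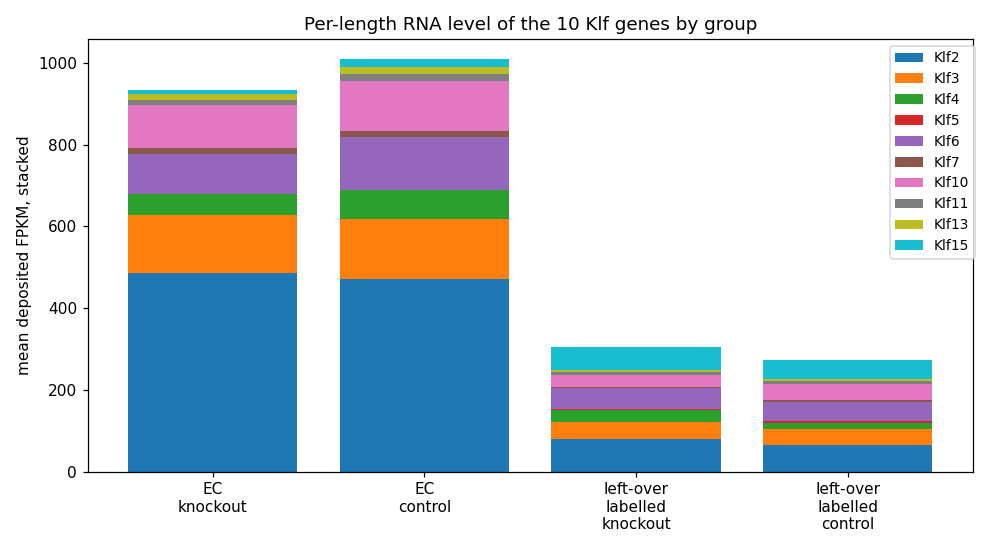
Mean deposited FPKM (y axis) of the 10 Klf genes, stacked, for endothelial knockout (n = 4), endothelial control (n = 4), left-over labelled knockout (n = 4) and left-over labelled control (n = 2). Klf2, at 485 and 471 FPKM in the endothelial groups, is the tallest segment of those bars, and Klf15 is thicker in the left-over bars, at 56.7 and 46.8 FPKM, than in the endothelial bars, at 11.9 and 19.5 FPKM.

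Below Klf2 in the endothelial groups came Klf3, Klf6 and Klf10, then Klf4. Klf3, a repressor that recruits CtBP, averaged 142 ± 7.79 FPKM in endothelial knockouts and 148 ± 23.5 in endothelial controls. Klf10 and Klf6 overlapped each other in both groups, at 105 ± 18.7 and 98.6 ± 11.8 FPKM in knockouts and 121 ± 25.9 and 131 ± 26.9 in controls. Klf4 followed with 52.4 ± 8.38 FPKM in knockouts and 69.7 ± 18.9 in controls. Klf7, Klf11, Klf13 and Klf15 formed a lower tier, at 11.9 to 14.02 FPKM in knockouts and 14.5 to 19.5 in controls, in which each neighbour overlapped the next. Klf5 was last, at 0.396 ± 0.209 FPKM in knockouts and 0.450 ± 0.102 in controls (SD, n = 4 each for all these values).

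The order in the left-over artery was different for Klf15 and less steep. Klf15 was second in the libraries labelled knockout, at 56.7 ± 9.88 FPKM, and ranked below Klf2 and Klf6 in those labelled control, at 46.8 ± 19.6. Its values overlapped those of Klf2, Klf6 and Klf3 in the libraries labelled knockout. In the libraries labelled control they overlapped those of Klf2, Klf6, Klf3 and Klf10. Klf5 and Klf7 were the lowest members there, at 1.94 ± 0.330 and 2.63 ± 0.208 FPKM in the libraries labelled knockout and 3.14 ± 0.0901 and 3.14 ± 0.614 FPKM in those labelled control.

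The endothelial controls were compared with the left-over artery for each member's share of the counts in either fraction. Of the 10 members, 8 were higher in the endothelial controls than in the left-over libraries labelled control, by 1.36 to 3.19 on the log2 scale, and Klf5 was lower. By edgeR's quasi-likelihood test at an adjusted p under 0.05, 9 of 10 members were called, in a comparison where 65.7% of 18484 genes were called, 34.6% as higher and 31.1% as lower. Against the left-over libraries labelled knockout, which are compared with the same 4 endothelial controls, 10 of 10 were called, 8 higher and 2 lower. There 75.0% of 17881 genes were called, 36.9% as higher and 38.0% as lower. In bulk RNA, fewer cells of a type and less RNA per cell cannot be told apart. With library totals in place of TMM, the median of all genes moved to -0.38 and -0.42, against -0.05 and -0.05. The higher share of all calls moved to 38.0% and 35.5%, against 52.6% and 49.3%, while 8 members kept positive and 2 kept negative values.

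Klf2, the shear-induced factor that promotes Nos3 and Thbd expression, had 1216, 968, 972 and 791.4 CPM in the endothelial controls. It had 108, 83.1, 119 and 194 CPM in the left-over libraries labelled knockout and 56.9 and 149 CPM in those labelled control. The lowest endothelial control was well above the highest left-over library. On the log2 scale Klf2 was higher by 3.19 (SE 0.46, edgeR adjusted p = 0.00137) against the libraries labelled control and 2.88 (SE 0.25, adjusted p = 2.26e-06) against those labelled knockout.

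Klf4, its partner in shear-exposed endothelium and a repressor of contractile genes in smooth muscle, had 318, 240.1, 219 and 180.2 CPM in the endothelial controls. It had 77.1, 57.8, 74.5 and 77.3 CPM in the left-over libraries labelled knockout and 30.9 and 44.9 CPM in those labelled control. No left-over library reached the endothelial range, and the 2 left-over groups did not overlap. On the log2 scale Klf4 was higher by 2.59 (SE 0.28, adjusted p = 0.000165) against the libraries labelled control and 1.65 (SE 0.17, adjusted p = 4.90e-06) against those labelled knockout.

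Klf7, known for axon growth and for holding back adipocyte differentiation, had the smallest SE of the 10 members in both fraction comparisons. It had 110.1 to 140.0 CPM in endothelial controls, 16.03 to 17.5 CPM in left-over libraries labelled knockout and 18.7 and 22.6 CPM in those labelled control. Its log2 fold changes were 2.55 (SE 0.15, adjusted p = 1.12e-06) against the libraries labelled control and 2.83 (SE 0.10, adjusted p = 4.99e-09) against those labelled knockout. Klf7, Klf3 and Klf13 each overlap a gene annotated on the opposite strand in GENCODE M21. Whether the counting used strand is not stated, so reads of these neighbours may be included.

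Klf3 had 316 to 440.3 CPM in endothelial controls, 66.3 to 85.9 CPM in left-over libraries labelled knockout and 66.3 and 93.0 CPM in those labelled control. Klf6, a factor induced by injury, had 489 to 708 CPM in endothelial controls, 167 to 203 CPM in left-over libraries labelled knockout and 127 and 222 CPM in those labelled control. Klf13, first described as a regulator of RANTES in T lymphocytes, had 83.6 to 128 CPM in endothelial controls, 24.4 to 40.04 CPM in left-over libraries labelled knockout and 22.8 and 27.2 CPM in those labelled control. None of these 3 ranges overlapped between the fractions. Of all 10 members, 9 had separate groups against the labelled controls and 10 against the libraries labelled knockout, beside 76.4% and 68.4% of all genes tested. The log2 fold changes against the libraries labelled control were 2.22 (SE 0.20) for Klf3, 1.77 (SE 0.27) for Klf6 and 2.07 (SE 0.19) for Klf13, and against those labelled knockout 2.20, 1.70 and 1.75.

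The TGF-beta-inducible pair, Klf10 and Klf11, was higher in the endothelial controls. Klf10 had 543, 364, 392.4 and 382 CPM in endothelial controls, 66.2, 56.7, 80.9 and 99.8 CPM in left-over libraries labelled knockout and 141 and 66.0 CPM in those labelled control. Its log2 fold change was 1.96 (SE 0.34, adjusted p = 0.00259) against the libraries labelled control and 2.38 (SE 0.18, adjusted p = 6.13e-07) against those labelled knockout. Klf11, which represses through Sin3a, had 77.8, 87.6, 102 and 57.7 CPM in endothelial controls, 15.8, 21.6, 20.5 and 24.6 CPM in left-over libraries labelled knockout and 35.2 and 25.4 CPM in those labelled control. Its log2 fold changes were 1.36 (SE 0.25, adjusted p = 0.00224) and 1.89 (SE 0.18, adjusted p = 3.49e-06) against the same groups.

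Klf5 and Klf15 ran the other way. Klf5, a promoter of smooth muscle growth and remodelling, had 0.634 to 1.10 CPM in endothelial controls, 2.44 to 3.26 CPM in left-over libraries labelled knockout and 4.37 and 4.99 CPM in those labelled control. These endothelial values rest on few reads, 10 to 26 per library over the 8 endothelial libraries. Its log2 fold change was -2.47 (SE 0.32, adjusted p = 0.000156) against the libraries labelled control and -1.73 (SE 0.30, adjusted p = 0.000384) against those labelled knockout. Klf15, a regulator of amino acid and lipid metabolism, had 48.5, 69.2, 73.1 and 19.0 CPM in endothelial controls. It had 81.9, 113, 123 and 130.9 CPM in left-over libraries labelled knockout and 70.7 and 119 CPM in those labelled control. The endothelial controls overlapped the labelled controls, and its log2 fold change of -0.93 (SE 0.57) was not called (adjusted p = 0.202). Against the libraries labelled knockout there was no overlap, and -1.19 (SE 0.38) was called (adjusted p = 0.0200). That call was lost without endothelial control 1 (-1.10, adjusted p = 0.0567) and without left-over labelled knockout 4 (-1.09, adjusted p = 0.0522).

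**Figure D2:**
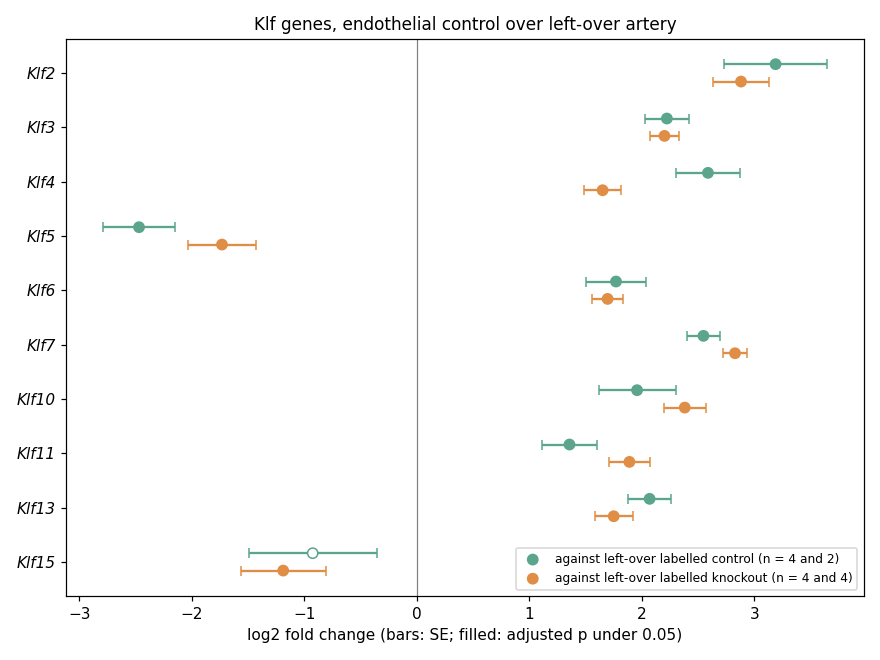
Log2 fold change (x axis) of each Klf gene, endothelial control over left-over artery, against the labelled control and the labelled knockout libraries; bars are SE and filled points have an edgeR adjusted p under 0.05. Values of 8 genes lie above 1, Klf5 lies at -2.47 and -1.73, and the single open point is Klf15 at -0.93.

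The endothelial markers give a scale for these values. The 10 markers, Pecam1, Cdh5 and Nos3 among them, had a median log2 fold change of 4.00 (range 0.76 to 4.56) against the libraries labelled control and 4.85 (range 0.70 to 5.61) against those labelled knockout. Of these markers, 8 had a larger log2 fold change than Klf2 in either comparison, and 8 or 9 a larger one than each other member that was higher in endothelial controls. The members' own medians were 2.01 and 1.82, beside -0.05 and -0.05 for all genes.

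Other genes of the pathway were also mostly higher in the endothelial controls. Of 16 genes of the shear route, the MEK5-ERK5-MEF2 cascade and the CCM complex that restrains it, 12 rose and 1 fell in endothelial controls relative to the labelled controls, with a median of 0.88. The mechanosensitive channel Piezo1 rose by 3.17 (SE 0.16) and the CCM partner Heg1 by 3.22 (SE 0.15). The deacetylase Hdac7 rose by 2.27 (SE 0.13) and Mef2d by 1.47 (SE 0.10), all on the log2 scale with adjusted p of 2.46e-06 or below by edgeR. Of 14 measured genes linked to KLF2 and KLF4 in endothelium, 10 rose and 3 fell, with a median of 3.14. Edn1, Vcam1, Ece1 and Nos3 rose by 5.19, 4.10, 3.85 and 4.09 on the log2 scale. Edn1 and Vcam1 are genes that KLF2 is known to repress, and they rose beside Nos3, which it promotes. Over all genes 34.6% were called higher and 31.1% lower in this comparison. Against the libraries labelled knockout the same 2 lists had 11 higher and 0 lower of 16, and 10 higher and 4 lower of 14. There 36.9% of all genes were called higher and 38.0% lower.

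Cofactors and TGF-beta genes were mostly higher in the endothelial controls, and smooth muscle and metabolic genes mostly lower. Of 12 cofactors and ubiquitin ligases of the factors, 9 rose and 0 fell against the labelled controls, led by the acetyltransferase Ep300 at 2.10 (SE 0.13) and the corepressor Ctbp2 at 2.17 (SE 0.14). Of 11 genes of the early TGF-beta response, 8 rose and 2 fell, with Smad7 at 2.99 (SE 0.17) and Skil at 2.63 (SE 0.17). Of 9 smooth muscle genes held down by KLF4, 8 fell and 1 rose, with Lmod1 at -4.94 (SE 0.14) and Myl9 at -5.54 (SE 0.17). Of these 9, 7 are also smooth muscle markers, and the rest are the regulators Myocd and Srf. Srf, the gene that rose, averaged 24.4 CPM in endothelial controls and 17.0 CPM in labelled controls, but 23.3 CPM in left-over libraries labelled knockout. Of 8 measured metabolic genes linked to KLF15, 6 fell and 0 rose, with Gpt2 at -4.45 (SE 0.31) and Slc2a4 at -5.58 (SE 0.47). Each count is read beside the 34.6% of genes called higher and 31.1% called lower in this comparison. Against the libraries labelled knockout the cofactors had 10 higher and 0 lower of 12, and the TGF-beta genes 8 and 2 of 11. The smooth muscle genes had 0 higher and 8 lower of 9 there, and the metabolic genes 1 higher and 6 lower of 8. Over all genes the shares there were 36.9% higher and 38.0% lower.

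**Figure D3:**
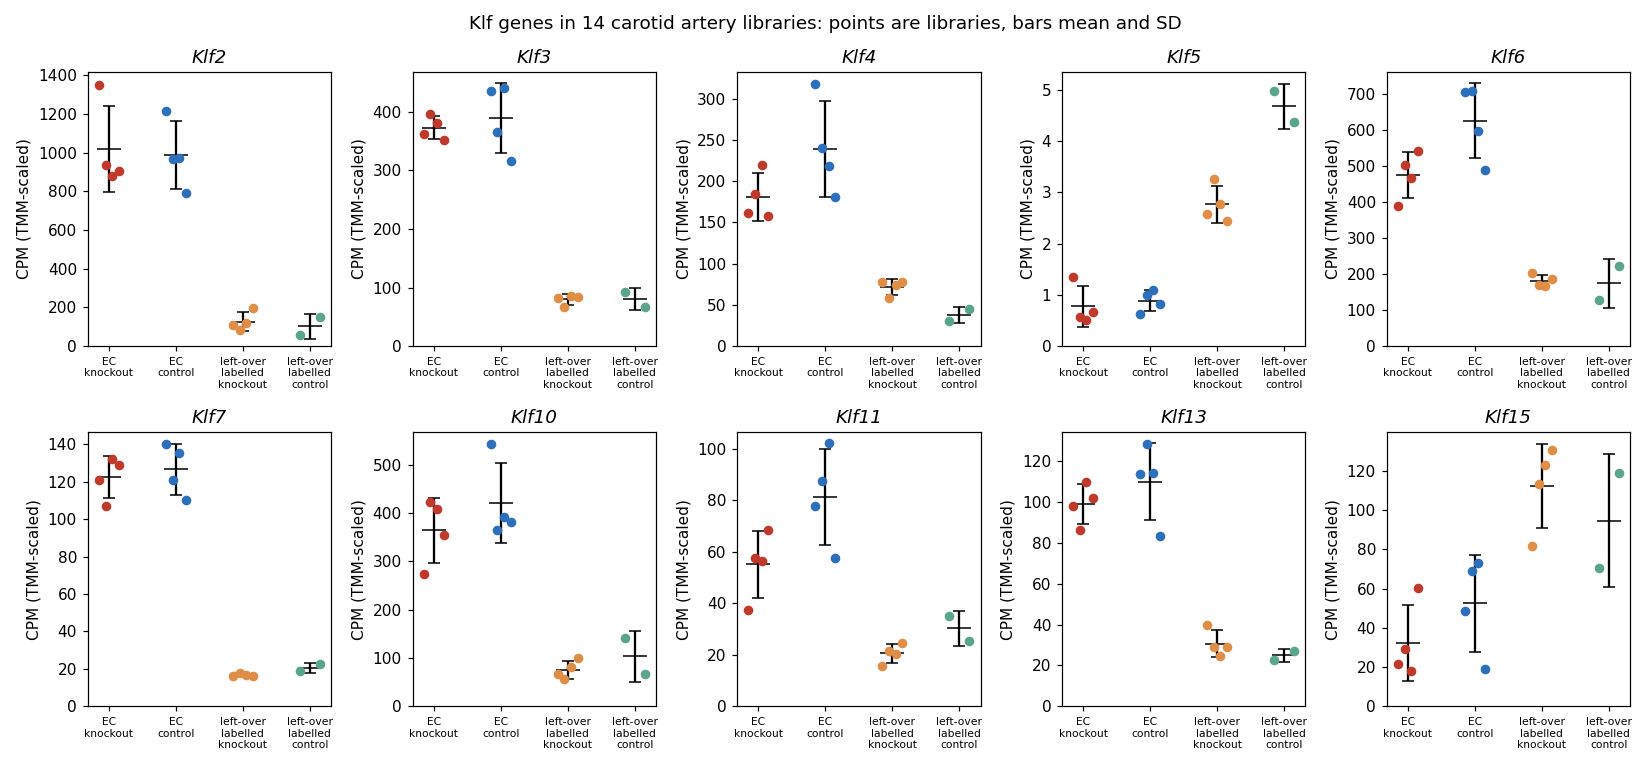
CPM (y axis, TMM-scaled over all 14 libraries, linear from 0) of the 10 Klf genes in endothelial knockout, endothelial control, left-over labelled knockout and left-over labelled control libraries; points are libraries and bars are mean and SD. Klf2 reaches 1352 CPM in 1 endothelial knockout, and Klf5 stays below 5 CPM in every library.

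Deletion of Poldip2 in the endothelium gave no call among the 10 members. None passed over all genes (edgeR adjusted p 0.767 to 0.992), in a comparison where 0% of 14800 genes were called. The deleted gene Poldip2 was thus not called by edgeR either, although it had 21.5 to 36.5 CPM in knockouts and 43.7 to 59.8 CPM in controls. In the authors' deposited table Poldip2 had a log2 fold change of -0.70 here, with an adjusted p of 0.000551 by their own test. DESeq2 called 0 of the 10 as well, and 67 genes over the whole table. At an unadjusted p under 0.05 there were 3 members, Klf4, Klf6 and Klf11, against 6.20% of all genes. In 0 of 10 members were the knockout and control libraries separate, against 3.84% of all genes. The log2 fold change was negative for 9 of 10 members under each of 3 scalings. The members' median was -0.21, beside 0.01 for all genes.

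Klf2 overlapped between the genotypes. It had 1352, 939, 880.2 and 904 CPM in the knockouts and 1216, 968, 972 and 791.4 CPM in the controls. The highest library was a knockout and the lowest a control. The log2 fold change was 0.03 (SE 0.17, 95% interval -0.35 to 0.40, adjusted p = 0.992). Klf3 and Klf7 had narrower intervals, with log2 fold changes of -0.08 (SE 0.11, interval -0.33 to 0.18) and -0.06 (SE 0.10, interval -0.29 to 0.16).

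Klf4 had 161, 185, 219.7 and 157 CPM in the knockouts and 318, 240.1, 219 and 180.2 CPM in the controls. The 2 highest libraries were controls, and knockout 3 and control 3 were nearly equal. Its log2 fold change was -0.42 (SE 0.18, unadjusted p = 0.0463 and adjusted p = 0.802 by edgeR). Klf6 had 389.6, 501, 467 and 540.2 CPM in the knockouts and 705, 708, 597 and 489 CPM in the controls. Control 4 lay inside the knockout range, and the other controls lay above it. Klf6 had a log2 fold change of -0.41 (SE 0.15, unadjusted p = 0.0212 and adjusted p = 0.767 by edgeR).

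Klf11 had 37.6, 57.8, 56.5 and 68.7 CPM in the knockouts and 77.8, 87.6, 102 and 57.7 CPM in the controls. Again only control 4 lay inside the knockout range. Its log2 fold change was -0.58 (SE 0.22, unadjusted p = 0.0288 and adjusted p = 0.775 by edgeR). Klf10 had 273, 422, 408 and 355 CPM in the knockouts and 543, 364, 392.4 and 382 CPM in the controls, with a log2 fold change of -0.22 (SE 0.17, adjusted p = 0.859).

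Klf15 was the most scattered member in the endothelium, with a coefficient of variation of 59.6% in knockouts and 47.3% in controls, the highest of the 10 in both. It had 21.7, 29.4, 17.9 and 60.3 CPM in the knockouts and 48.5, 69.2, 73.1 and 19.0 CPM in the controls. Knockout 4 lay with the controls and control 4 with the knockouts. The log2 fold change of -0.72 had an SE of 0.52 and an interval of -1.92 to 0.49 (adjusted p = 0.849). Klf13 was -0.17 (SE 0.14) and Klf5 -0.21 (SE 0.38), neither called.

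**Figure D4:**
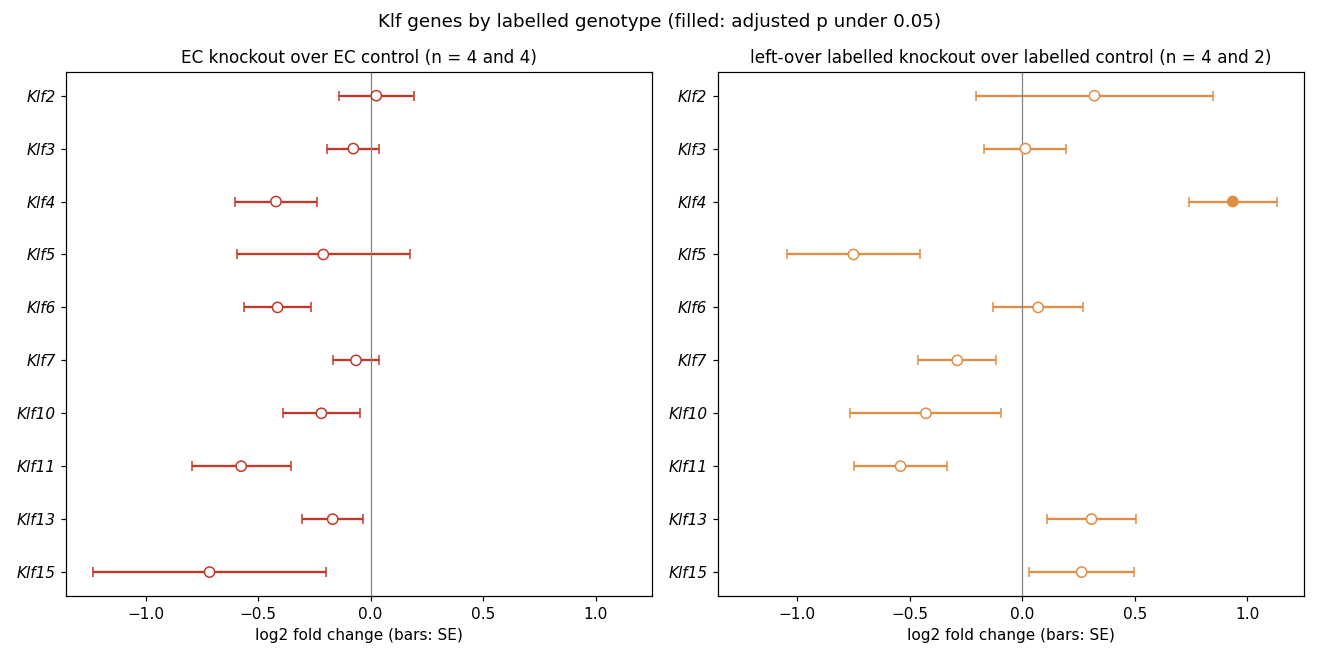
Log2 fold change (x axis, bars SE) of the 10 Klf genes for endothelial knockout over endothelial control (n = 4 and 4) and for left-over labelled knockout over left-over labelled control (n = 4 and 2). Klf4 in the left-over artery, at 0.94, is the single filled point, with an edgeR adjusted p under 0.05.

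Clock genes were also scored in the endothelial groups, whose scores overlapped. A clock score, the mean log2 CPM of 9 genes that peak with Dbp minus that of 5 genes that peak with Bmal1 (Arntl), was 3.11, 1.22, 1.35 and 1.24 in endothelial knockouts 1 to 4. It was -0.19, -0.33, 1.09 and 1.80 in endothelial controls 1 to 4. The controls with scores nearest the knockouts were controls 3 and 4. For Klf4 both lay inside the knockout range, at 219 and 180.2 CPM, while controls 1 and 2 lay above it, at 318 and 240.1 CPM. Control 4 lay inside the knockout range for Klf6, Klf11 and Klf15, while control 3 had the highest control values of Klf11 and Klf15, 102 and 73.1 CPM. For Klf6 control 3 lay above the knockout range, at 597 CPM against 540.2 CPM in the highest knockout. For Klf15 control 1, with a score far from the knockouts, lay inside their range as well, at 48.5 CPM. With the score as a covariate, the log2 fold change was -0.14 (SE 0.17) for Klf4, -0.13 (SE 0.09) for Klf6, -0.30 (SE 0.20) for Klf11 and -0.17 (SE 0.60) for Klf15, and for Klf10 it was 0.01 (SE 0.16), none of them called. Score and genotype partly went together in these libraries, so this covariate cannot fully separate them. The clock's part in the difference was not tested. None of the 9 Dbp-phase genes or the 5 Bmal1-phase genes was called in the endothelial knockouts, where Dbp had 1.21 (SE 0.72) and Arntl -0.95 (SE 0.59).

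The makeup of the libraries also differed between the endothelial groups. The mean log2 CPM of the smooth muscle markers was 4.87, 4.401, 4.18 and 4.02 in endothelial knockouts and 3.64, 3.59, 3.71 and 3.91 in endothelial controls, so the groups did not overlap. Of 9 smooth muscle markers tested 8 had a positive log2 fold change (median 0.76), as did 6 of 6 adipocyte markers (median 1.23), none of them called. The mean log2 CPM of the 10 fibroblast markers was 7.60, 5.21, 5.46 and 5.63 in endothelial knockouts and 6.94, 6.77, 7.80 and 6.91 in endothelial controls. With that score as a covariate the log2 fold changes were larger in size, -0.57 (SE 0.23) for Klf4, -0.62 (SE 0.17) for Klf6, -0.51 (SE 0.17) for Klf10 and -0.82 (SE 0.30) for Klf11, with adjusted p of 0.120 to 0.272. Klf15 was at -0.86 (SE 0.82, edgeR adjusted p = 0.644) with the same covariate. Without the library highest in these markers in each group, a choice made after seeing the data, the log2 fold changes were -0.41 for Klf4, -0.35 for Klf6, -0.30 for Klf11 and -0.37 for Klf15. None was called under either setting, and the part of these other cells in the Klf values was not tested.

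**Figure D5:**
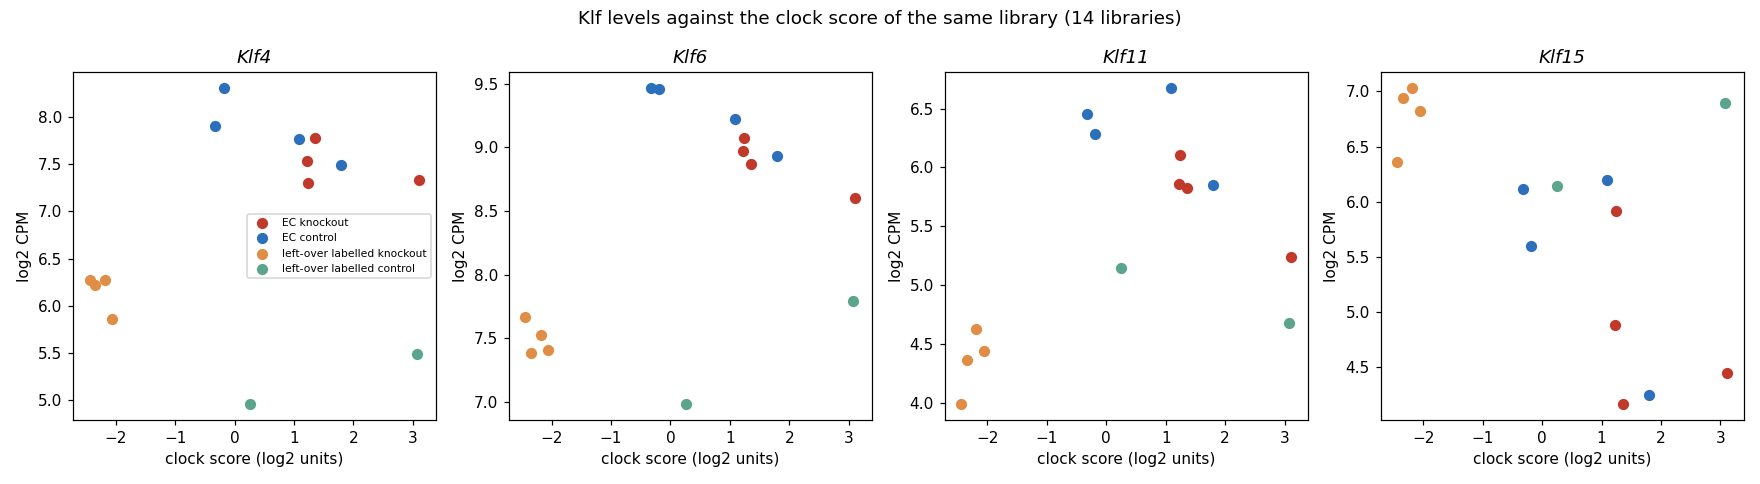
Log2 CPM (y axis) of Klf4, Klf6, Klf11 and Klf15, the 4 members with the lowest endothelial knockout log2 fold changes, against the clock score of the same library (x axis, log2 units) in 14 libraries coloured by group. The left-over libraries labelled knockout sit together at scores of -2.44 to -2.06, and the endothelial knockouts at 1.22 to 3.11.

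The lists around the family also gave no call in the endothelial knockouts. Of the 16 shear and MEK5-ERK5-MEF2 genes none was called, the smallest p being that of Mef2c at 0.35 (SE 0.11, adjusted p = 0.701). Of 13 measured genes linked to KLF2 and KLF4, none was called, with Slc9a3r2 at 0.62 (SE 0.11, adjusted p = 0.270) and Nos3, endothelial nitric oxide synthase, at 0.38 (SE 0.10, adjusted p = 0.638). Nos3 had 652 ± 74.3 CPM in knockouts and 494 ± 53.5 CPM in controls (SD, n = 4 each). Of the 9 smooth muscle genes held down by KLF4 none was called, and 8 had a positive log2 fold change, with a median of 0.67. Myh11, smooth muscle myosin, had 1.63 (SE 0.28, adjusted p = 0.270), Cnn1, calponin, 1.502 (SE 0.36, adjusted p = 0.638) and Acta2, smooth muscle actin, 0.67 (SE 0.21, adjusted p = 0.701). These 3 are smooth muscle markers too, and the smooth muscle marker score was higher in every knockout than in every control. Of 16 immediate early genes none was called, and 10 had a negative log2 fold change. Dusp1, a phosphatase on both the immediate early and the glucocorticoid list, had -0.90 (SE 0.23, adjusted p = 0.638). Of 12 glucocorticoid-induced genes, 11 had a negative log2 fold change, with Sgk1 at -0.47 (SE 0.15, adjusted p = 0.718).

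In the left-over artery, Klf4 was the member called between the labels. It had 77.1, 57.8, 74.5 and 77.3 CPM in the libraries labelled knockout and 30.9 and 44.9 CPM in those labelled control. Every library labelled knockout was above both labelled control. The log2 fold change was 0.94 (SE 0.20, edgeR adjusted p = 0.0412). The call rests on few libraries. It was lost without labelled control 1 (0.70, adjusted p = 0.607), without labelled control 2 (1.21, 0.0737), without labelled knockout 1 (0.89, 0.0922) and without labelled knockout 3 (0.91, 0.0707). With the replicate number as a block it was 0.82 (adjusted p = 0.0962), also not called. The value stayed between 0.70 and 1.21 over 14 alternatives, of which 7 gave a call. In the authors' deposited table the same gene had a log2 fold change of -0.67 with an adjusted p of 0.0210, in a comparison whose control group is the 4 libraries labelled knockout. The other group of that comparison is not the 2 libraries labelled control alone, since its mean FPKM equalled theirs in 0.00702% of 14253 genes, so the deposited value and the one fitted here compare unlike groups.

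Of the 10 members 1 was called in this comparison, against 0.792% of 20442 genes, and as higher against 0.421%. The 4 members whose groups did not overlap, Klf4, Klf5, Klf7 and Klf11, are to be read against 21.3% of all genes. Klf5 had 2.58, 3.26, 2.78 and 2.44 CPM in the libraries labelled knockout and 4.99 and 4.37 CPM in those labelled control. Its log2 fold change of -0.75 (SE 0.30) was not called (adjusted p = 0.360), nor was that of Klf11 at -0.54 (SE 0.21, adjusted p = 0.338) or of Klf7 at -0.29 (SE 0.17, adjusted p = 0.626). For Klf5 the authors' deposited table gives 0.72 with an adjusted p of 0.0195, in that same comparison of unlike groups.

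The remaining 6 members overlapped between the left-over groups. Klf2 had 0.32 (SE 0.53), Klf3 0.01 (SE 0.18), Klf6 0.07 (SE 0.20), Klf10 -0.43 (SE 0.34), Klf13 0.31 (SE 0.20) and Klf15 0.26 (SE 0.23) as log2 fold change. The 95% intervals of Klf2 (-1.02 to 1.66) and Klf10 (-1.21 to 0.35) were the widest of the 10. The 2 libraries labelled control lay far apart for both, at 56.9 and 149 CPM for Klf2 and 141 and 66.0 CPM for Klf10.

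Clock genes differed between the left-over groups beside Klf4. Over all 20442 genes tested, 86 were called higher and 76 lower in this comparison. Of the 9 Dbp-phase genes 6 fell in the libraries labelled knockout, with Nr1d2 at -2.36 (SE 0.18), Tef at -2.17 (SE 0.26), Hlf at -2.11 (SE 0.29) and Per3 at -1.42 (SE 0.23). Cry1, a repressor of the clock, rose by 1.43 (SE 0.24, edgeR adjusted p = 0.0146), the single call among 5 Bmal1-phase genes. The clock score was -2.44, -2.06, -2.35 and -2.19 in the libraries labelled knockout and 0.25 and 3.07 in those labelled control. Of 12 glucocorticoid-induced genes, the cell cycle inhibitor Cdkn1a rose by 2.14 (SE 0.19) and the receptor co-chaperone Fkbp5 by 1.93 (SE 0.25), while Klf15 was not called. Of 8 genes linked to KLF15, the amino acid transporter Slc7a5 rose by 0.96 (SE 0.21, adjusted p = 0.0478). Of the 10 endothelial markers none was called and 9 had a negative log2 fold change, with summed levels of 287 to 897 CPM in the libraries labelled knockout and 795 to 1215 CPM in those labelled control. The part of the clock in the Klf4 difference was not tested.

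Whether the endothelial and the left-over knockout differences were unequal was also fitted, on all 14 libraries. No member was called by edgeR, against 0.256% of 21464 genes, and 1 had an unadjusted p under 0.05. Under the labels as given Klf4 had the smallest p, at -1.32 (SE 0.28, edgeR adjusted p = 0.0583), its log2 fold change being negative in the endothelial fraction and positive in the left-over fraction under the labels. With DESeq2 the value was -1.34 with an adjusted p of 0.00257. The other 9 members had adjusted p of 0.445 to 0.995. Were the left-over labels exchanged, an alternative added after seeing the data, Klf4 would be at 0.52 (SE 0.27, adjusted p = 0.699) and Klf11 at -1.12 (SE 0.32, adjusted p = 0.307), with 0 members called by edgeR. Size, sign and order of these differences therefore depend on the labels.

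The genes whose profiles lay nearest to each member over the 14 libraries were found by the root mean square difference of centred log2 CPM, among 10540 genes with a mean of at least 5 CPM. Klf6 had the closest neighbour of any member, the survival factor gene Mcl1 at 0.14, followed by Jun at 0.20 and Sgk1 at 0.20. Klf4 was nearest to Rhob at 0.25, N4bp1 and Jun, so Jun stood near both. Klf2 was nearest to Fxyd5 at 0.35, Afap1l1 and Dock6, and Klf7 to Nfatc1 at 0.16, Tjp1 and Lyrm9. Klf3 was nearest to Ccnl2 at 0.15, Npr1 and Numa1, and Klf13 to Kmt2a at 0.16, Znrf1 and Herc2. Klf10 was nearest to Med24 at 0.25, Fam171a1 and Pcdhb17, Klf11 to Psen2 at 0.26, Bsdc1 and Irak2, and Klf5 to Glul at 0.22, Cnrip1 and Mpv17l. Klf15 had the most distant neighbours, Angpt2 at 0.49, Cebpd and Mpzl1. The libraries come from the endothelial and the left-over fraction and differ in depth. Genes with a like difference between the fractions can lie near each other, and these distances are a description only.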

How the data were processed

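RNA sequencing of 14 libraries was analysed from the deposited gene table. The read counts per gene in it were made by the authors with tools that the submitters' processing notes list without roles: edgeR 3.16.5, HTSeq 0.6.1, STAR 2.5, STAR-Fusion, TopHat and DESeq2. These counts were used for every test. The authors also deposited FPKM values, used here for levels between genes, log2 fold changes and p-values between groups, and other columns such as gene length. The notes name mm9, but 6 of the 10 members share a start or an end exactly with GENCODE M21 on GRCm38, so GRCm38 was used.

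Genes were kept by filterByExpr (minimum count 10, minimum total 15), scaled by TMM and tested with the two-sided quasi-likelihood test of edgeR 4.0.16 (limma 3.58.1, statmod 1.5.0, R 4.3.3), tested on simulated data. P-values were adjusted by Benjamini-Hochberg over all genes tested and called under 0.05. A prior count of 2 went into log2 CPM. A count of 3, which a zero allows at 95% confidence, was 0.129 to 0.1997 CPM, covering counting error only.

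The members and gene lists were chosen with earlier results of these data known. All members are named; of each list, up to 4 called genes with the smallest p are named, or up to 3 that did not pass. Alternatives were DESeq2 1.42.0, other filters and scalings, repeat blocks, covariates and left-out libraries.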

Additional observations from a re-analysis of the deposited data

Results flagged for a closer look

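In 3 of the 30 groups of 4 libraries examined (10 members in 3 groups; chance flags about 1 group in 20), 1 library stood apart from the other 3 by a gap above the 95% critical value of Dixon's test. Klf2 was 1352 CPM in endothelial knockout 1, against 880.2 to 939 CPM in the other knockouts. Klf10 was 543 CPM in endothelial control 1, against 364 to 392.4 CPM in the other controls. Klf4 was 57.8 CPM in left-over labelled knockout 2, against 74.5 to 77.3 CPM in the other libraries labelled knockout. Endothelial knockout 1 also had the highest clock score of its group, 3.11 against 1.22 to 1.35, and the highest fibroblast marker score, 7.60 against 5.21 to 5.63.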

How the results depend on the processing

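No member changed direction past the threshold under any alternative run. In the endothelial knockouts 0 members were called under every setting, while genes called over the whole table moved to 14 without the low-count filter, 67 with DESeq2, 4 with all 14 libraries fitted, 3 with the clock score and 116 with the fibroblast score as covariate, and 97 without both fibroblast-high libraries, against 0; leaving out 1 library gave 0 to 20. Between the left-over labels, genes called moved to 397 without the filter, 349 with DESeq2 and 2015 with the replicate block, against 162, and to 41 to 260 with 1 library left out. Members called fell to 0 without robust dispersions, with all 14 libraries and with the replicate block, against 1, and ranged over 0 to 1 with 1 library left out; a lone labelled control was then assumed to vary like the other group. For the difference between fractions, genes called moved to 426 with DESeq2, 19 with the replicate block and 3 with the left-over labels exchanged, against 55, with 7 to 131 when 1 library was left out. Members called moved to 1 without the filter and with DESeq2, against 0, with 0 to 1 when 1 library was left out. Fraction calls of members were 9 of 10 and 10 of 10; Klf15 was called against the labelled controls with the replicate block (-0.73, adjusted p = 0.00128), and lost against the libraries labelled knockout without the filter (-1.08, 0.0862) and with all 14 libraries (-1.10, 0.0507). Repeat numbers were not used as pairs in the main fits, since not every same-numbered pair of any 2 groups correlated above 0.1. That rule cannot exclude shared animals. Same-numbered deviations correlated at -0.19 to 0.16 between the endothelial groups and -0.03 to 0.34 between the left-over groups. With 2 labelled controls, their deviations from the group mean mirror each other, so their correlations are not independent. Endothelial controls correlated with labelled controls at -0.07 to 0.21 and with the libraries labelled knockout at -0.000361 to 0.42, 3 of 4 pairs there being above 0.1, and shared description numbers gave -0.19 to 0.20. A block on those 3 numbers, in 6 libraries, left 10 of 10 members called. The replicate block changed no other call of a member. Of 40 ratios of mean levels, 25 moved by less than 1 SD in deposited FPKM and 15 moved by more; the cause was not tested. The left-over comparison is limited by 2 libraries labelled control, and Klf5 by its few reads.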

Other observations

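Other members of the zinc-finger family were also mostly higher in the endothelial controls. Of 7 further Klf genes in the table, 5 were tested against the left-over libraries labelled control, and 4 rose and 0 fell, where 34.6% of all genes were called higher. Against the libraries labelled knockout 4 rose and 1 fell, beside 36.9% of all genes called higher and 38.0% lower. Klf8, a repressor that binds CtBP, had 16.9 ± 1.97 CPM in endothelial controls (SD, n = 4), 1.90 ± 0.346 CPM in left-over libraries labelled knockout (SD, n = 4) and 1.16 ± 0.203 CPM in those labelled control (SD, n = 2). Its log2 fold change was 3.79 (SE 0.22, edgeR adjusted p = 1.25e-06) against the labelled controls, above the 3.19 of Klf2. Klf12 rose by 1.68 (SE 0.22), Klf16 by 1.32 (SE 0.29) and Klf9, a glucocorticoid- and thyroid hormone-responsive factor, by 0.66 (SE 0.24). Klf9 averaged 218 ± 47.1 CPM in endothelial controls, 140.3 ± 24.1 CPM in left-over libraries labelled knockout and 131 ± 28.05 CPM in those labelled control. Klf1 and Klf14 stayed below 1 CPM in every library.

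The Sp factors Sp1, Sp2, Sp3 and Sp4 rose by 0.97 to 1.28 on the log2 scale against the labelled controls, 4 of 4 tested. In the endothelial knockouts none of the 4 tested Klf genes or 4 tested Sp genes was called, with Klf8 at 0.27 (SE 0.13, adjusted p = 0.811) and Sp4 at -0.08 (SE 0.11, adjusted p = 0.930). Between the left-over labels none of 6 further Klf genes was called, with Klf8 at 0.72 (SE 0.41, adjusted p = 0.591).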
